A study of Mus musculus with 121 samples.

Results

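Liver RNA of knockout (KO) and wild-type (WT) mice fed the Alios diet was compared gene by gene. The members are all liver libraries labelled Alios and KO (8) or Alios and WT (6), which are 14 of the 75 liver libraries and of 121 labelled samples in the whole series. All genes that passed a count filter were tested, 11595 of 25759 in the count table. C57BL/6 mice that were WT, heterozygous (HET) or KO for a gene written PEP in the labels ate standard chow, a Control diet, the Alios diet or a high-fat diet (HFD) for 18 weeks, starting when they were 8 weeks old. The sources used here do not give how the allele was made, in which cells it is lost, or the sex of the mice. Besides the 14 members, 5 HET libraries on Alios, 8 WT and 9 KO libraries on HFD, and 5 WT and 5 KO libraries on chow were used for comparison. WT (5), HET (4) and KO (1) libraries on Control diet shared the estimate of the spread.

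Pepd encodes prolidase, a cytosolic dipeptidase that frees amino acids from dipeptides with proline or hydroxyproline at their end, the last step of collagen breakdown. The Alios diet is known as a trans-fat-rich diet that gives mice a fatty, inflamed liver, and its composition in this study is not given in the sources used here. In hepatocytes, the nuclear receptors CAR (Nr1i3) and PXR (Nr1i2) switch on cytochrome P450 genes of the Cyp2b, Cyp2c and Cyp3a groups, conjugating enzymes and transporters, and Cyp2b10 is the classic gene induced by CAR.

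KO library 8 held 42692 counts, so that 1 read in it was worth 21.3 CPM (read counts scaled by the TMM library size), and 5692 genes had a read in it. Totals of the other 13 libraries ran from 1912375 to 6422093 counts. Results are given for all 8 KO libraries and without KO library 8. Hepatocyte markers (19 in the table, 19 with a read) summed to 110000 to 150000 CPM in WT and 129000 to 167000 CPM in KO livers. Skeletal muscle markers summed to 212 CPM in WT library 2 and 853 CPM in KO library 2, against 4.16 CPM or less in the other 12, and Acta1 and Tnnc2 were at 0 reads in all 14. The clock-controlled gene Ciart was at 33.5 CPM in WT library 4 against 1.24 to 9.54 CPM in the other WT libraries, while for the clock genes Arntl, Npas2 and Dbp WT libraries 3 and 4 were alike. Each library is labelled as a separate mouse, no litter or cage is given, and the p-values measure the spread between these libraries.

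A gene is referred to as called where its edgeR quasi-likelihood p, adjusted by Benjamini-Hochberg over all genes tested, was under 0.05. In KO against WT on Alios, 26 genes were called (0.224% of those tested), 14 higher (0.121%) and 12 lower (0.103%) in KO. These are 25 genes with a name and the RIKEN clone 9530068E07Rik. Without KO library 8, 22 of 11611 genes were called (0.189%), all of them among the 26, and Cgref1, Chic1, Sema3b and Lrp2bp were lost. At an unadjusted p under 0.05, 724 genes were higher (6.24%) and 960 lower (8.28%), and the median log2 fold change over all genes tested was -0.008.

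The 250 bases before the RefSeq start sites of Cyp2b10, Cyp2c29 and Cyp2c55 (build GRCm38.p6, all on the plus strand) are shown because these 3 genes had the highest fold changes of the called Cyp2 genes and belong to the set that CAR and PXR are known to induce. Capitals mark AGGTCA, a half-site of nuclear receptors, and TATAAA, the TATA box.
Cyp2b10, chr7:25897408-25897657: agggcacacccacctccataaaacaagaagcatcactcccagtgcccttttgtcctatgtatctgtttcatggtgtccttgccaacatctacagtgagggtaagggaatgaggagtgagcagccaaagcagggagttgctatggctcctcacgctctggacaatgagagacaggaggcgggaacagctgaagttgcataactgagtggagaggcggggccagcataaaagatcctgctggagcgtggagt
Cyp2c29, chr19:39286835-39287084: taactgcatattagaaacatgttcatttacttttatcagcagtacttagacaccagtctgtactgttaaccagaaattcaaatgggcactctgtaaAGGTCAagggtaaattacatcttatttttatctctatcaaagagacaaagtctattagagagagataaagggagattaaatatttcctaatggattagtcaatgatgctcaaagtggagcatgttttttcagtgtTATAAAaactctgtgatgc
Cyp2c55, chr19:39006769-39007018: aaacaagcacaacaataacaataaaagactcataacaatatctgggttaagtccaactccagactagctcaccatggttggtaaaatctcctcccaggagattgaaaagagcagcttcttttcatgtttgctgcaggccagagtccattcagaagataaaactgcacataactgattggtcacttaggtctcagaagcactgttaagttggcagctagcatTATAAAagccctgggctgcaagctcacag
The half-site AGGTCA, its variant written AGTTCA, and the TATA box TATAAA were searched for on both strands, and no match overlapped another. Cyp2c29 held AGGTCA from position -154 and TATAAA from position -19, counted back from the start site, and Cyp2c55 held TATAAA from position -29. None of these letters was in the Cyp2b10 window, whose known phenobarbital-responsive enhancer lies farther upstream. Among 32851 mouse windows of this length, 14% held AGGTCA, 11.8% AGTTCA and 12.4% TATAAA. Of the raised genes, 12 had an entry, of which 1 held AGGTCA, 1 AGTTCA and 4 TATAAA.

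The check on the labels came first. Pepd (chr7:34912379-35044708) ran from 32.3 to 46.9 CPM (median 45.2) in the 6 WT livers, from 18.2 to 29.1 CPM in the 5 HET livers and from 2.15 to 3.16 CPM in KO libraries 1 to 7, with 0 reads in KO library 8. The genotypes did not overlap. Pepd fell by 4.00 on the log2 scale (SE 0.13, edgeR adjusted p = 2.1e-19). Of the other proline peptidases, Prep (prolyl endopeptidase) was at 31.9 ± 3.94 CPM (SD, n = 6) in WT and 32.7 ± 5.71 (SD, n = 8) in KO, and Dpp4 (dipeptidyl peptidase 4) at 179 ± 37.3 and 166 ± 19.1. Neither was called (edgeR adjusted p = 0.66 and 0.69). Of the 10 proline peptidases tested, Pepd alone was called, and of 10 genes of proline metabolism none was. Prodh, the first enzyme of proline breakdown, had a log2 difference of 0.41 and P4hb, a subunit of collagen prolyl hydroxylase, one of -0.23 (unadjusted p = 0.039 and 0.03).

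Of the 14 genes called higher in KO livers on Alios, 5 were cytochrome P450s of the Cyp2 family, which oxidise drugs, steroids and fatty acids, and Cyp2b10 and Cyp2c29 had the highest fold changes of the 14. Cyp2b10 (chr7:25897620-25926624) was at 0.461, 3.1, 1.66, 0, 0.773 and 0 CPM in the 6 WT livers and at 57.2, 53, 63.8, 60.7, 21.5, 63.8, 69.2 and 42.5 CPM in the 8 KO livers. Every KO library, the shallow one with its 2 reads included, lay above every WT library. The gene was 47.4-fold higher (log2 5.57 ± 0.52 SE, edgeR adjusted p = 1.3e-07), and the log2 value without KO library 8 was also 5.57. Because 2 WT libraries had no read, the size of this fold rests on few WT reads. Pepd, Cyp2b10 and Zfp574 were the 3 called genes on chromosome 7, where 864 genes were tested (0.224% of all tested genes were called). The part of alleles linked to the targeted gene was not tested.

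Cyp2c29 (chr19:39269405-39330713), which makes epoxides of arachidonic acid, was the most abundant of the raised Cyp2 genes. It ran from 315 to 980 CPM (median 447) in WT and from 2410 to 3670 CPM (median 2720) in KO livers, again without overlap. It was 5.44-fold higher (log2 2.44 ± 0.30 SE, edgeR adjusted p = 2e-05). Per kilobase of exon, the KO level of Cyp2c29 was 951 CPM, against 25.6 CPM for Cyp2b10 and 6.37 CPM for Cyp2c55. Cyp2c55 (chr19:39007019-39042693), a neighbour that also acts on arachidonic acid, ran from 1.38 to 6.21 CPM (median 2.34) in WT and from 9.01 to 21.3 CPM (median 11.5) in KO. Its groups did not overlap either, and the gene was 3.43-fold higher (log2 1.78 ± 0.35 SE, edgeR adjusted p = 0.019). The call of Cyp2c55 ended without WT library 1 or WT library 3, with an edgeR adjusted p of at most 0.066.

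Of the Cyp2d group on chromosome 15, the mouse counterparts of human CYP2D6, Cyp2d40 and Cyp2d11 were called. Cyp2d40 was at 65.5 to 96.2 CPM (median 78.0) in WT and 121 to 326 CPM (median 169) in KO livers, with KO library 4 the highest and no overlap. It was 2.30-fold higher (log2 1.20 ± 0.20 SE, edgeR adjusted p = 0.004). Cyp2d11 ran from 45.2 to 66.9 CPM in WT and from 63.8 to 99.9 CPM in KO, where only the shallow library, at 3 reads, fell among the WT values. Its difference was 1.45-fold (log2 0.54 ± 0.11 SE, edgeR adjusted p = 0.028). Near-identical Cyp2c and Cyp2d copies share reads, so the split between neighbours is uncertain. Exons of Cyp2c29 overlap those of the pseudogene Cyp2c53-ps by 142 bases.

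**Figure D1:**
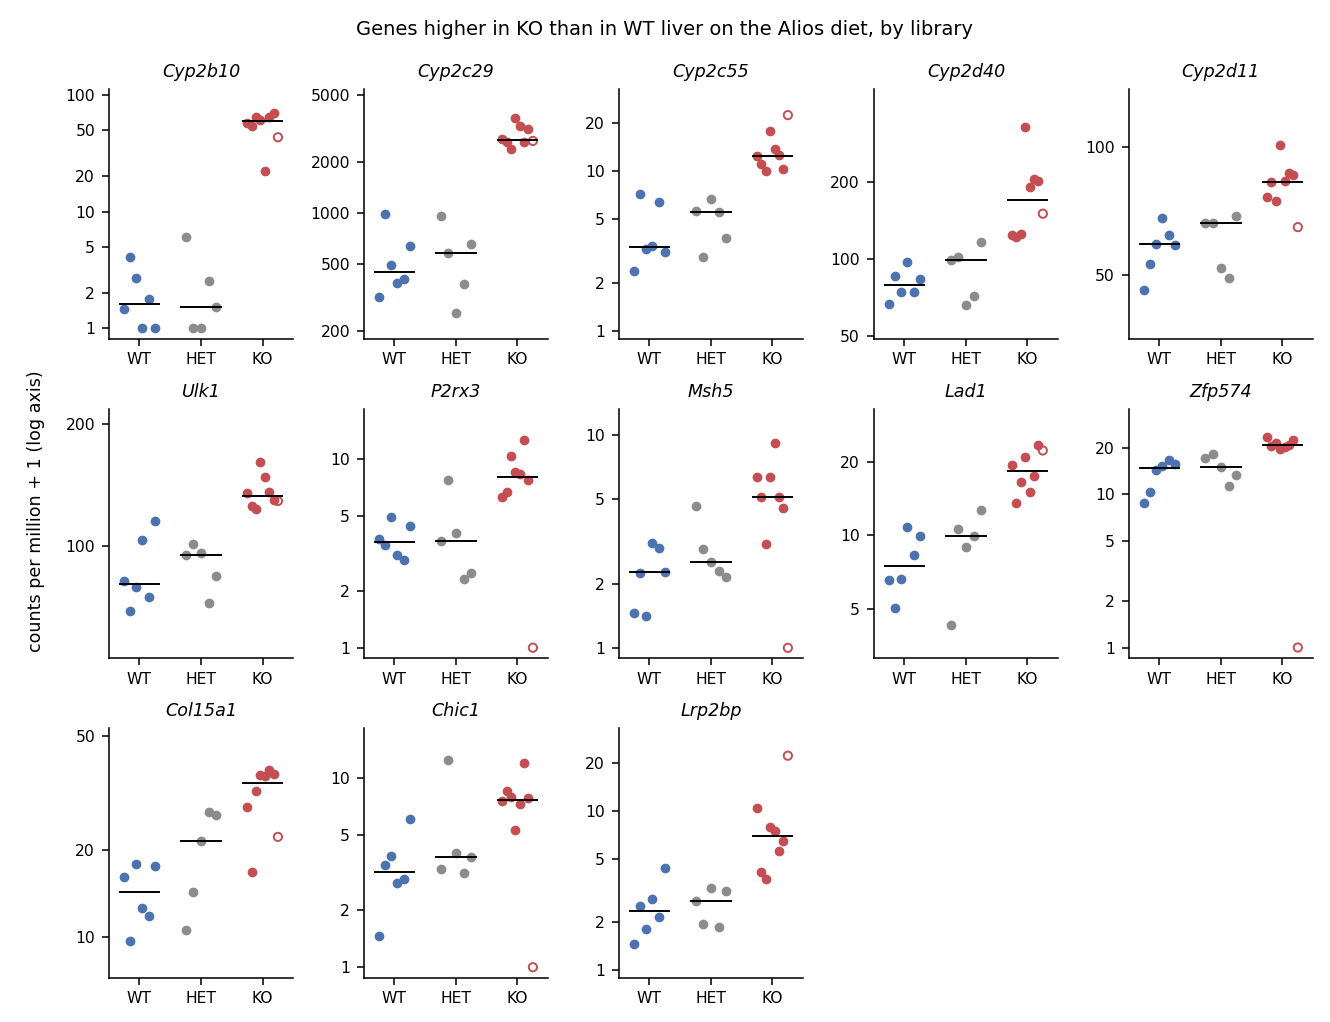
CPM plus 1 (log axis) of the 13 named genes called higher in KO, for every Alios library of the WT (6), HET (5) and KO (8) groups. Each point is 1 mouse, bars are medians, and the open circle is the shallow KO library 8, where 1 read is worth 21.3 CPM; for 6 of the 13 genes every KO point lies above every WT point.

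The other 8 named raised genes have unlike roles. Ulk1, the kinase that starts autophagy, was at 67.7 to 114 CPM (median 79.3) in WT and 122 to 160 CPM (median 131) in KO livers, without overlap. It was 1.58-fold higher (log2 0.66 ± 0.11 SE, edgeR adjusted p = 0.0049). P2rx3, an ATP-gated ion channel best known from sensory neurons, was at 1.93 to 3.94 CPM in WT and 5.31 to 11.5 CPM in KO libraries 1 to 7 (2.64-fold, edgeR adjusted p = 0.0084). KO library 8 had no read of P2rx3, and the other 7 KO libraries all lay above WT. Its exons overlap those of Ssrp1, on the opposite strand, by 51 bases, and whether reads were counted by strand is not given in the sources used here.

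Lad1, an anchoring filament protein of basement membranes, was at 4.03 to 9.86 CPM in WT and 12.6 to 22.4 CPM in KO livers (2.49-fold, edgeR adjusted p = 0.022). Its groups did not overlap. Col15a1, a basement membrane collagen, was at 8.69 to 17.0 CPM in WT and 15.8 to 37.2 CPM in KO (2.33-fold, edgeR adjusted p = 0.029), with KO library 2 alone inside the WT range. Msh5, a MutS homologue of meiotic recombination, rose from a median of 1.26 to 4.12 CPM (3.83-fold, edgeR adjusted p = 0.022). Zfp574, a zinc finger protein, lay between 18.8 and 22.9 CPM in KO libraries 1 to 7 and between 7.84 and 15.8 CPM in WT (1.61-fold, edgeR adjusted p = 0.026), and KO library 8 had no read. Msh5 ran from 2.08 to 8.15 CPM in KO libraries 1 to 7, and the lowest of them reached the WT range.

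Chic1 and Lrp2bp were raised genes of low abundance. Chic1, an X-linked gene for a palmitoylated membrane protein, had medians of 2.21 CPM in WT and 6.71 CPM in KO (2.82-fold, edgeR adjusted p = 0.042, and 0.052 without KO library 8). Lrp2bp, a binding partner of the receptor megalin, had medians of 1.36 and 6.00 CPM (3.70-fold, edgeR adjusted p = 0.043, and 0.055 without KO library 8). Both calls ended without the shallow library, which held 0 reads of Chic1 and 1 of Lrp2bp. Ankrd37, on the opposite strand, covers 8.05% of the Lrp2bp exons.

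Among the 11 genes other than Pepd that fell were 3 transporters, of which Slc16a5 had the lowest adjusted p of the 11. Slc16a5, of the monocarboxylate transporter family, was at 18.5, 48.7, 38.2, 15.2, 25.1 and 9.78 CPM in the WT livers and at 2.86, 7.58, 8.32, 1.07, 2.16, 0.918, 4.13 and 0 CPM in the KO livers. All KO values were below the lowest WT value. Slc16a5 fell by 2.74 on the log2 scale (SE 0.41, 6.67-fold lower, edgeR adjusted p = 0.001). Slco1a4, a carrier that takes up organic anions and bile acids, was at 46.0 to 106 CPM (median 77.4) in WT and 6.98 to 38.1 CPM (median 18.4) in KO, without overlap (3.74-fold lower, edgeR adjusted p = 0.024). Slco1a4 is itself known as a PXR target, and it moved opposite to the raised Cyp2 genes. Slc10a2, the sodium-dependent bile acid transporter of ileum and bile duct cells, was at 41.5 to 106 CPM in WT and 28.5 to 43.3 CPM in KO livers (1.89-fold lower, edgeR adjusted p = 0.032), and 2 KO libraries reached into the WT range.

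Osbpl3, an oxysterol-binding-protein relative that binds lipids at membrane contacts, was at 79.3, 27.0, 70.3, 38.2, 20.1 and 27.2 CPM in the WT livers and at 3.68, 15.2, 21.1, 1.07, 2.33, 0, 7.86 and 21.3 CPM in the KO livers (5.78-fold lower, log2 -2.53 ± 0.49 SE, edgeR adjusted p = 0.019). KO libraries 3 and 8 reached just into the WT range, the latter with 1 read. Without KO library 7, WT library 1 or WT library 3 the call of Osbpl3 ended, with an edgeR adjusted p of at most 0.066.

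Of matrix and surface genes, Postn (periostin, a matrix protein of scar tissue) ran from 12.8 to 34.6 CPM (median 22.9) in WT and from 5.05 to 12.6 CPM (median 5.91) in KO libraries 1 to 7, which all lay below WT. KO library 8 had 2 reads, worth 42.5 CPM and above every WT value. Postn was 2.76-fold lower (log2 -1.46 ± 0.25 SE, edgeR adjusted p = 0.0049) and -1.48 on the log2 scale without KO library 8. Mcam (CD146, an adhesion molecule of vessel walls) ran from 8.71 to 15.8 CPM in WT and from 0 to 8.52 CPM in KO, without overlap (2.09-fold lower, edgeR adjusted p = 0.029). Sema3b, a secreted guidance protein, was at medians of 3.73 and 1.34 CPM (3.14-fold lower, edgeR adjusted p = 0.043, and 0.055 without KO library 8). Mcam separated the groups fully, but KO library 8 had no read of it, and KO library 2, at 8.52 CPM, lay just below the lowest WT value. Most KO values of Sema3b overlapped the lowest WT library.

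Further lowered genes were Serpinb8, an intracellular protease inhibitor, and 3 others. Serpinb8 was at 6.92 to 10.6 CPM in WT, 8.42 to 16.7 CPM in HET and 0 to 6.31 CPM in KO livers (2.45-fold lower than WT, edgeR adjusted p = 0.0037). Samd9l, an interferon-induced gene, was at 32.1 to 64.1 CPM in WT and 16.7 to 33.5 CPM in KO libraries 1 to 7 (1.92-fold lower, edgeR adjusted p = 0.015). The KO group lay below WT for Serpinb8, and 1 KO library reached the WT range for Samd9l. Defb1, a secreted antimicrobial peptide, had medians of 6.75 CPM in WT and 1.35 CPM in KO (4.18-fold lower, edgeR adjusted p = 0.029). Cgref1, a secreted protein with calcium-binding EF-hands, had medians of 8.87 and 2.52 CPM (2.45-fold lower, edgeR adjusted p = 0.042, and 0.055 without KO library 8).

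**Figure D2:**
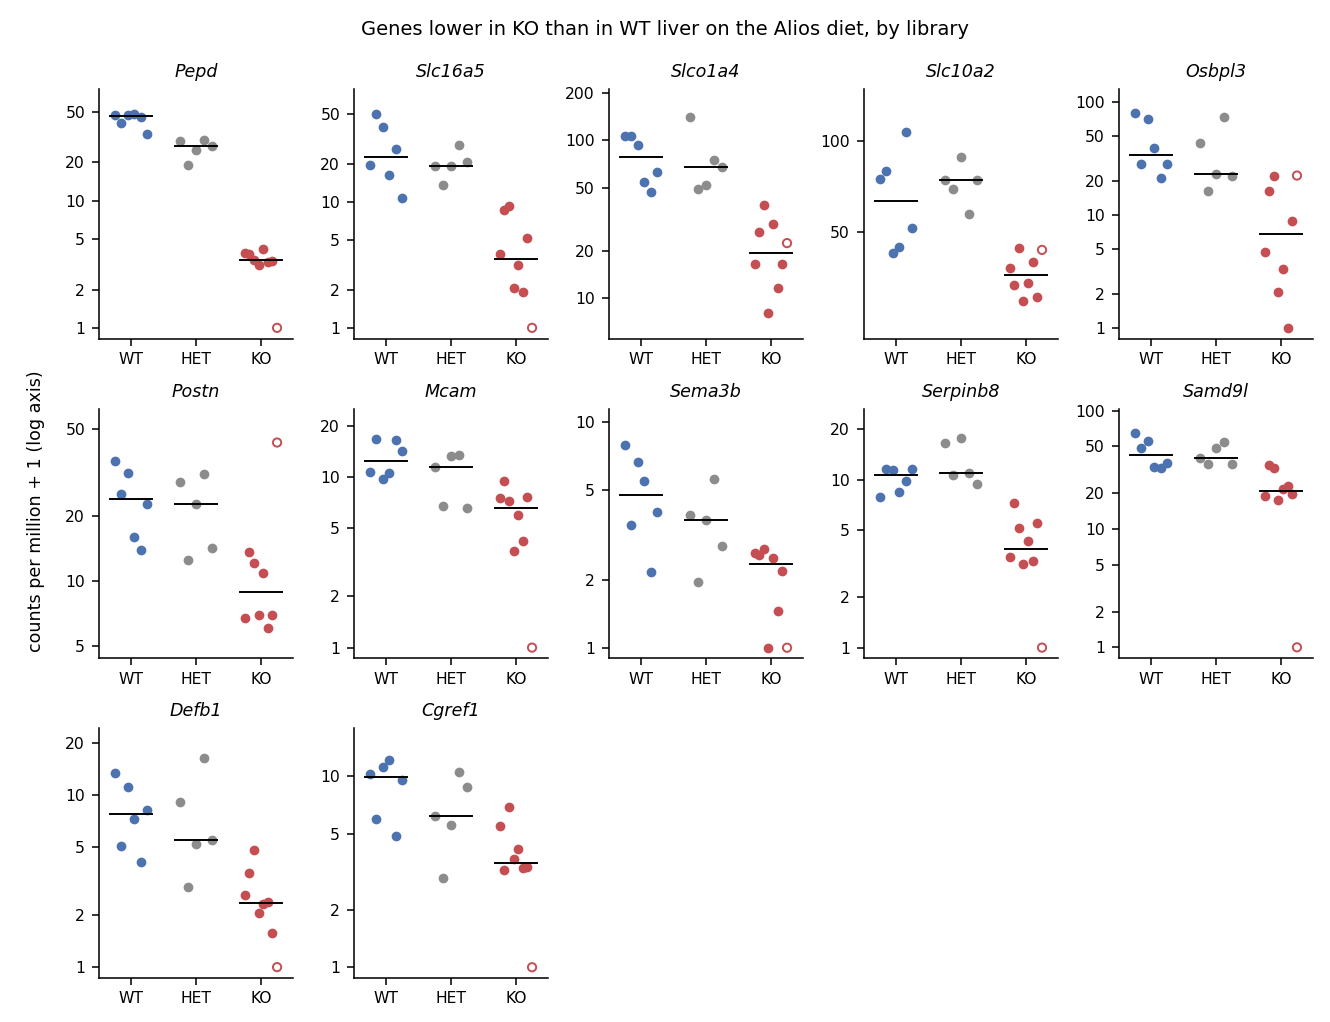
CPM plus 1 (log axis) of the 12 genes called lower in KO, for every Alios library of the WT (6), HET (5) and KO (8) groups. Points, bars and the open circle are as in the plot of raised genes; Pepd is the gene whose HET points lie between the other groups, and for 5 of the 12 genes every KO point lies below every WT point.

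The groups did not overlap for 6 of the 13 raised genes (over all tested genes, 0.112% had every KO library above every WT library) and for 5 of the 12 lowered ones (background 0.44% below). Without KO library 8 these counts were 9 (background 0.319%) and 6 (background 0.5%). For lowered genes, a 0 in KO library 8 counts as below WT, although 1 read there is worth 21.3 CPM. The test and the overlap use the same values, so the counts describe the members and add no support.

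The livers were not alike within a group. Among the 11 lowered genes other than Pepd, WT library 1 was the highest WT library for 6, and KO library 3 the highest of KO libraries 1 to 7 for 7. WT library 3 was among the top 2 WT libraries for 7 genes, and HET library 4 was the highest HET library for 8. Summed cholangiocyte markers, which include keratins and Spp1, were 986 CPM in WT library 1, 716 in WT library 3 and 942 in HET library 4, against 414 to 580 CPM in the other 4 WT libraries. Among WT libraries, Spp1 itself was highest in WT libraries 1 and 3. It is counted below with lipid-associated macrophage genes too, so the sum does not tell these cell types apart. In KO livers the sum had a median of 410 CPM, and KO library 3 was the highest. Of the 15 cholangiocyte markers listed, among them Krt8 and Krt18, 8 passed the count filter, and how specific their sum is to cholangiocytes was not tested. The part of cholangiocytes in the lowered genes was not tested either. In bulk RNA, fewer cells of a type and less RNA per cell cannot be told apart.

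Single libraries mattered for many calls. Of the 25 named genes, 9 stayed called without each of the 14 libraries in turn, namely Pepd, Cyp2b10, Cyp2c29, Cyp2d40, Ulk1, P2rx3, Slc16a5, Serpinb8 and Postn, and all 25 kept their sign. Samd9l lost its call without KO library 7, WT library 1 or WT library 3, Lad1 without KO library 7 or WT libraries 1, 2 or 3, and Msh5 without KO library 5 or WT libraries 1, 2 or 3 (edgeR adjusted p at most 0.066, 0.078 and 0.078). The remaining 11 (Zfp574, Cyp2d11, Slco1a4, Defb1, Col15a1, Mcam, Slc10a2, Cgref1, Chic1, Sema3b and Lrp2bp) lost it in 6 to 10 of the 14 fits, those without KO library 7 and without WT library 1 among them for each gene, with an edgeR adjusted p of at most 0.13. In the fit without WT library 4 all 26 genes were called among 198.

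In HET livers on Alios, none of the named genes but Pepd was called against WT. HET against WT shares the WT libraries with the comparison above, and KO against HET shares the KO libraries, so the values stand side by side. In HET against WT, 0.00862% of genes were called, namely Pepd, and each of the 24 others had an edgeR adjusted p of 1. Cyp2b10 was at 0 to 5 CPM and Cyp2c29 at 255 to 957 CPM in the 5 HET livers, both inside or just beyond the WT ranges. In KO against HET, where 0.285% of genes were called, the log2 values were 4.90 ± 0.51 (SE) for Cyp2b10 and 2.37 ± 0.32 for Cyp2c29. Those for Slc16a5, Serpinb8 and Postn were -2.33 ± 0.44, -1.69 ± 0.21 and -1.37 ± 0.26. The mean HET level was nearer to WT than to KO for 23 of the 24 genes, with Chic1 the exception, where HET library 2 held 11.5 CPM and the others 2.17 to 3.04 CPM.

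On HFD, whose libraries took no part in choosing these genes, the KO effect had the same sign for 23 of the 24 genes other than Pepd (57% of all tested genes shared the sign). Of the 24, 13 were called on HFD in the fit of all liver groups (1.95% of all genes), and 21 had an unadjusted p under 0.05. Cyp2b10 was at 1.33 ± 0.897 CPM (SD, n = 8) in WT and 85.8 ± 47.8 (SD, n = 9) in KO on HFD. Cyp2c29 was at 598 ± 354 and 3070 ± 1000 CPM. Slc10a2 was the exception, with a log2 value of 0.06 ± 0.24 (SE) on HFD. The difference of the 2 KO effects was itself tested, and no gene was called (0% of 12128, 983 or 8.11% at an unadjusted p under 0.05). For the 24 genes the smallest edgeR adjusted p of the difference was 0.38, which does not show that the effects were equal. The Cyp2d40 difference was 0.83 on the log2 scale and that of Slc16a5 was -1.58, neither of them called (edgeR adjusted p = 0.38 and 0.51).

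**Figure D3:**
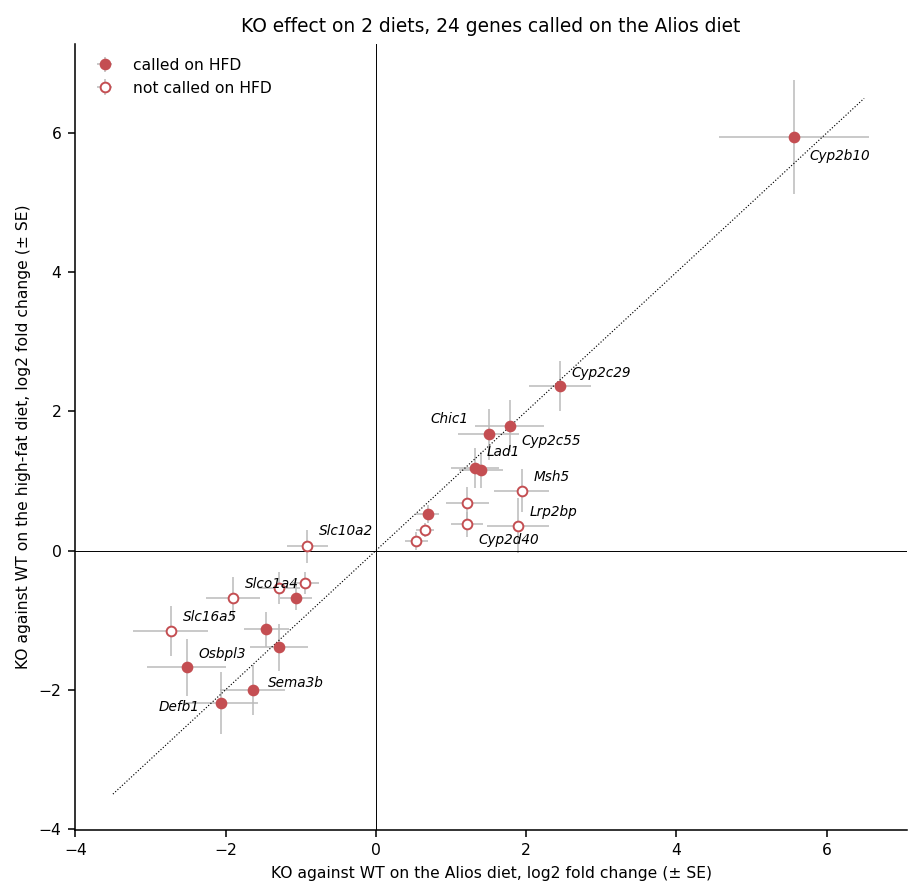
Log2 fold change of KO against WT on the Alios diet (x axis) and on the high-fat diet (y axis), each with its SE from the fit of all liver groups, for the 24 named genes other than Pepd. Filled points are the 13 genes called on the high-fat diet, the dotted line marks equal effects, and Slc10a2 is the 1 gene on the other side of 0.

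On chow, 22 of the 24 genes had the same sign as on Alios (51.7% of all tested genes did), and 3 were called, Cyp2b10, Msh5 and Slco1a4 (5.09% of all genes were called on chow). As with HFD, diet and set of mice cannot be told apart in a comparison with chow. The difference of KO effects, Alios minus chow, was called for 311 genes (2.56%), 57 higher (0.47%) and 254 lower (2.09%). It was called for 4 of the 24: Cyp2c29 (log2 2.24, edgeR adjusted p = 0.025), Cyp2d40 (1.12, 0.035), Cyp2d11 (0.81, 0.034) and Ulk1 (0.61, 0.045). With 1 chow library left out, 0 to 5 of the 24 were called, with 0 without chow KO library 2 or 3 and 1 without chow KO library 5 or chow WT libraries 2 or 4. In chow livers Cyp2c29 was at 1440 ± 223 CPM (SD, n = 5) in WT and 1660 ± 884 (SD, n = 5) in KO, so the WT level on Alios, 535 ± 245 (SD, n = 6), was the lower of the pair. Cyp2c55 showed the same order, with 13 ± 4.85 CPM in WT on chow and 3.30 ± 1.99 on Alios. The low WT level was not particular to Alios. In WT livers on Control diet and HFD, the means were 659 and 598 CPM for Cyp2c29 and 4.65 and 3.73 CPM for Cyp2c55. Chow thus held the highest WT mean of the diets for both genes. The count of 311 was 14, all lower and none of the 24, without chow KO library 2, and 755 without chow KO library 4. On Control diet, where 1 KO library gives no test, Cyp2b10 was at 60.0 CPM in that library and at 0 to 6.61 CPM in 5 WT libraries, and Cyp2c29 at 3500 CPM against 186 to 812 CPM.

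Drug-metabolising genes beyond the called ones pointed both ways. Of all 44 Cyp2 and Cyp3 genes tested, the 5 described above were called, all higher (0.121% of all genes tested were called higher). The list used for the other counts held 36 of the tested genes, not Cyp2d11 among them, with 4 called higher and 0 lower. On it, at an unadjusted p under 0.05, 13 were higher and 8 lower (background 6.24% and 8.28%). The median log2 fold change was 0.092 (all genes -0.008). Split by subfamily, a split made after the values were seen, 8 of 12 listed Cyp2c genes were higher and 1 lower at that p (median 0.59), with values of 1.80 for Cyp2c54, 1.34 for Cyp2c37 and 1.29 for Cyp2c50. All 7 listed Cyp3a genes had negative values (median -0.75), and 5 had an unadjusted p under 0.05. Cyp3a11, the main PXR-induced Cyp3a of mouse liver, was at -0.75 (unadjusted p = 0.049). Cyp2b9 and Cyp2b13, which lie beside Cyp2b10 and are higher in female than in male liver, had values of -3.41 and -2.32. Cyp2b9 was at 105 and 164 CPM in WT libraries 1 and 2, higher still in WT library 3, and at 1.19, 1.16 and 5.10 CPM in the other WT livers, against 0 to 40.1 CPM in the KO livers.

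Of 24 genes on the CAR and PXR list, 3 were called higher (Cyp2b10, Cyp2c29 and Cyp2c55) and 1 lower (Slco1a4). Over all genes tested the shares were 0.121% and 0.103%. The 3 raised genes are also on the Cyp2 and Cyp3 list, and the median of the CAR and PXR list was -0.113. Ces2a, a carboxylesterase, was at 0.66, while Gsta1, Gsta2 and Gstm3, glutathione transferases, were at -3.16, -1.37 and -1.31, and the drug pump Abcb1a at -1.10. None of these 5 was called. Among 28 conjugating enzymes none was called, and the median was 0.039. At an unadjusted p under 0.05, 5 were higher and 5 lower (background 6.24% and 8.28%). Without WT library 4, 6 listed Cyp2 and Cyp3 genes were called higher, and 4 conjugating enzymes and 4 genes of the CAR and PXR list lower. The last 2 lists share members, and over all genes tested 86 were called higher and 112 lower in that fit. Gsta4 ran from 22.1 to 61.8 CPM in WT and from 9.64 to 24.5 CPM in KO libraries 1 to 7 (log2 -1.17 ± 0.26 SE), and Sult1a1, a phenol sulfotransferase, from 207 to 349 and from 129 to 240 CPM over all 8 (log2 -0.65 ± 0.15). With edgeR adjusted p of 0.051 and 0.055, both were among the 5 genes nearest the threshold, beside Gstp2 (log2 1.16), Birc2 (-0.36) and Col6a3 (-1.13).

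**Figure D4:**
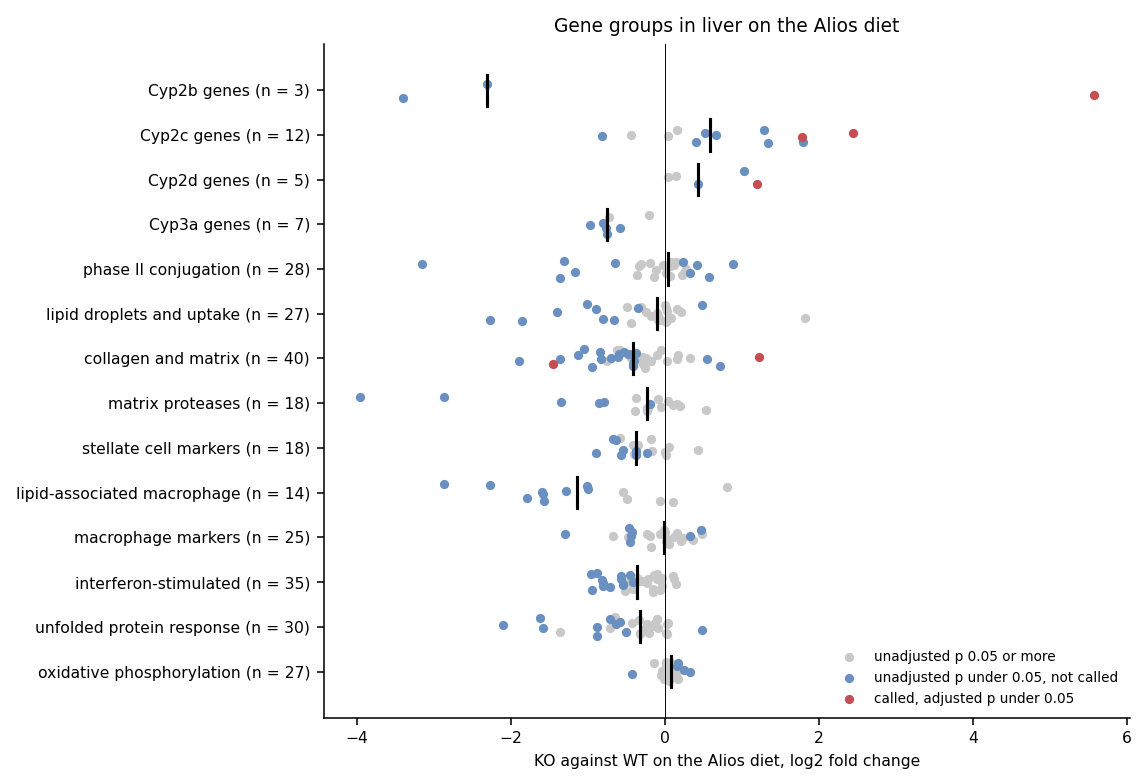
Log2 fold change of KO against WT on the Alios diet for the tested members of 14 gene groups, 1 point per gene; black bars are medians and n is the number of genes. Red points are called, blue points have an unadjusted p under 0.05 only, and the lipid-associated macrophage group has the lowest median of the lists shown (-1.15) apart from the 3 Cyp2b genes.

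Of 40 collagen and matrix genes, 33 had negative values, Col15a1 was called higher and Postn lower. At an unadjusted p under 0.05, 18 were lower and 3 higher (background 8.28% and 6.24%), and the median was -0.421. Col6a3 was at 13.7 to 23.5 CPM in WT and 0 to 10.7 CPM in KO, without overlap. The fibrillar collagens Col1a1, Col3a1 and Col1a2 had log2 values of -1.37, -1.05 and -0.84, and the basement membrane genes Col4a1 and Nid1 -0.60 and -0.83. Of 18 hepatic stellate cell markers, the cells that make scar collagen, none was called, 8 were lower at that p, and the median was -0.38. Their summed level ran from 607 to 828 CPM (median 686) in WT and from 494 to 703 CPM (median 549) in KO, and none of the 18 was at 0 reads. The part of stellate cell number in the collagen values was not tested. Without WT library 4, 1 matrix gene was called higher and 4 lower (86 and 112 over all genes tested).

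Genes of lipid-associated macrophages, the cells that gather around fat-laden hepatocytes, had a median of -1.15. Of 14 tested, 9 were lower and 0 higher at an unadjusted p under 0.05 (background 8.28% and 6.24%), and none was called. Spp1 (osteopontin) was at 201, 76.0, 213, 82.4, 42.9 and 72.3 CPM in the WT livers and at 31.9 to 69.6 CPM in the KO livers (log2 -1.29 ± 0.40 SE, edgeR adjusted p = 0.13). Mmp12, a macrophage elastase, was at 47.5, 12.1, 18.7, 1.79, 2.71 and 6.38 CPM in WT and at 0 to 7.26 CPM in KO (edgeR adjusted p = 0.095, and 0.049 without WT library 4). WT libraries 1 and 3 held the highest values of both genes, and the ranges overlapped. The 25 general macrophage markers had a median of -0.007, with sums of 960 to 1350 CPM in WT and 1030 to 1380 CPM in KO libraries 1 to 7, and 1 of 26 (Itgam) was at 0 reads. Ccr2, the receptor of incoming monocytes, had a value of -1.30 and Folr2, a marker of resident macrophages, one of 0.32 (unadjusted p = 0.0053 and 0.022).

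No interferon-stimulated gene of the list was called. Of 35 tested, 13 had an unadjusted p under 0.05, all lower (background 8.28% lower, median -0.363). Ifit3 ran from 11.2 to 29.8 CPM in WT and from 9.01 to 21.5 CPM in KO libraries 1 to 7 (log2 -0.82 ± 0.21 SE, edgeR adjusted p = 0.077). Samd9l, called lower, was not on that list. Of the 16 cytokines and chemokines tested none was called, and Cxcl1, a neutrophil-attracting chemokine at -2.33, had 78.5 CPM in WT library 2 against 5.02 to 10.1 CPM in the other WT livers.

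Lipid genes had no called member. Of 27 lipid droplet and uptake genes, 8 were lower and 1 higher at an unadjusted p under 0.05 (background 8.28% and 6.24%, median -0.104). Hsd17b13, a lipid droplet protein of hepatocytes, was at up to 975 CPM (median 684) in WT and 333 to 683 CPM (median 387) in KO libraries 1 to 7 (log2 -0.66 ± 0.17 SE, edgeR adjusted p = 0.078). Plin4, Cidea, Cidec and Cd36, which coat droplets or take up fatty acids, had values of -1.40, -2.28, -0.90 and -1.01. Fatty acid synthesis genes (28) had a median of 0.327, cholesterol synthesis genes (29) one of 0.109 and oxidation genes (39) one of -0.069. Adipocyte markers summed to 941 to 2420 CPM in WT and 978 to 2150 CPM in KO. That list shares Pck1 with the hepatocyte markers and holds Cidec, so the sum is not a measure of adipocytes alone.

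Of 30 genes of the unfolded protein and integrated stress responses none was called (median -0.321). At an unadjusted p under 0.05, 9 were lower and 1 higher (background 8.28% and 6.24%). Hspa5, the chaperone BiP, had a value of -0.51, and Dnajb9 and Herpud1, which serve protein quality control in the endoplasmic reticulum, of -0.71 and -0.64. On HFD the median of the same genes was 0.346. In the difference Alios minus HFD the median was -0.685 (all genes -0.011), 17 of the 30 were lower at an unadjusted p under 0.05, and none was called. Growth hormone responsive and sex-biased genes (27) had a median of 0.426 with 5 higher and 4 lower at that p (background 6.24% and 8.28%). Cyp7b1 (log2 1.34) and Cyp2d9 (1.03), higher in male liver, and Serpina1e (1.05) were among the 5. Cyp2d9 was at 216 to 1070 CPM in WT, where library 4 was the highest, and at 962 to 1470 CPM in KO livers.

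Oxidative phosphorylation (27 genes, median 0.079), glucose and glycogen (26, -0.011), amino acid breakdown (33, -0.048) and circadian clock genes (18, -0.051) had medians near that of all genes and no called member. Clock genes that move in opposite directions cancel in a median. Ciart had the lowest value of the clock list, -2.44 (edgeR adjusted p = 0.14), and -1.33 without WT library 4. The 11 tested skeletal muscle markers had a median of 1.61, with KO library 2 at a sum of 853 CPM, and none was called. Without WT library 2 and KO library 2, 26 genes were again called, 20 of them the same.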

How the data were processed

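Poly(A) RNA of whole liver was sequenced as single-end reads of 50 bases from stranded libraries, per the labels' protocols, with RNA integrity numbers above 7. Per the submitters' processing notes, the tools were STAR 2.5.1b and featureCounts 1.5 with build GRCm38.p5. The sources used here give neither settings nor annotation nor whether reads were counted by strand. The authors deposited whole-number counts for each Ensembl gene, without normalization. Symbols were matched for 25723 of 25759 genes from GENCODE M21.

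Counts were fitted in R 4.3.3 with edgeR 4.0.16 (expression filter with minimum count 10 and minimum total 15, TMM, quasi-likelihood test, two-sided, Benjamini-Hochberg at 0.05) over the 6 Control and Alios groups (29 libraries). Differences of KO effects between diets, and the effects on HFD and chow, came from 1 fit of all 12 liver groups (75 libraries). SE is the size of the log2 fold change divided by the square root of F. CPM used TMM-scaled library sizes. The test was tried on simulated counts. Within a group, pairs of libraries differed by more than sampling noise (chi-square over degrees of freedom at least 1.28).

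Named genes are every called gene with a symbol that is no predicted gene or clone, the 5 next below the threshold, Pepd, Prep and Dpp4, and leading members of 44 gene lists. Members and lists were chosen with earlier results of these data known, and list counts and medians are descriptions. Alternatives were DESeq2 1.42.0, limma 3.58.1, and other scalings, filters and sets of libraries.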

Additional observations from a re-analysis of the deposited data

Results flagged for a closer look

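A library stood apart from the others of its group, by a gap test that flags about 1 group in 20 by chance, in 5 of 56 groups of values, and 4 of the 5 flags fell on KO library 8, where 1 read is worth 21.3 CPM. Pepd and Zfp574 were at 0 CPM (0 reads) there against at least 2.15 and 18.8 CPM in the other KO livers. Postn was at 42.5 CPM (2 reads) against at most 12.6 CPM, and Lrp2bp at 21.3 CPM (1 read) against at most 9.40 CPM. Cyp2d40 was at 326 CPM (606 reads) in KO library 4, against 121 to 204 CPM in the other KO livers.

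Between Alios and chow, diet and set of mice cannot be told apart. The KO effect differed between Alios and chow, by the edgeR test of the difference, for 4 genes called on Alios: Cyp2c29 (log2 difference 2.24), Cyp2d40 (1.12), Cyp2d11 (0.81) and Ulk1 (0.61). Without chow KO library 2, none of these 4, nor any of the genes named next, was called. Among the largest differences over all genes were Mup4, a major urinary protein (5.45), the keratin Krt10 (3.59), Srgap3 (2.72) and the lipogenic malic enzyme Me1 (1.88) on the higher side. On the lower side were the chitinase-like genes Chil3 (-6.75) and Chil1 (-6.36), the metallothioneins Mt2 (-6.51) and Mt1 (-6.27), and the acute-phase gene Lcn2 (-5.63). Lcn2 ran from 6.94 to 1910 CPM in 5 chow KO livers and from 0 to 85.8 CPM in 8 Alios KO livers, and its value on Alios was not called. Mup4 and Krt10 each rest on 1 chow WT library: Mup4 was at 63.6 CPM there against a group median of 0.907 CPM, and Krt10 at 32.4 against 1.72 CPM. Without that library neither passed the count filter of the fit. Mup4, Krt10, Chil3 and Chil1 did not pass the filter of the Alios fit either, and Mup4 had 14 reads in all 8 Alios KO libraries together.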

How the results depend on the processing

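None of the 25 named genes called in KO against WT changed sign in any fit. For the other named genes, only sign changes that came with a call were looked for, and there were none. The 26 genes called in KO against WT became 69 with DESeq2, 40 with RLE size factors (16 higher and 24 lower, against 14 and 12), 53 with only Alios KO and WT, 52 with all 12 liver groups, 328 with limma voom and sample weights (lowest for WT library 4, 0.309), 9 at an adjusted p under 0.01 and 170 without WT library 4 and KO library 8, a set chosen after the data were seen. Leaving out 1 library gave 10 to 198: 10 without WT library 1, 11 without KO library 7, 14 without WT library 3, 17 without KO library 4, KO library 6 or WT library 2, 40 without KO library 5, 73 without KO library 2, 87 without WT library 6, 92 without KO library 3 and 198 without WT library 4. The cause was not tested. The difference Alios minus HFD, with 0 genes, gave 6 with DESeq2, 1 with RLE, 12 with voom, 8 without WT library 4 and KO library 8, and 0 to 11 with 1 library left out (11 without WT library 4, 5 without WT library 3 or WT library 6). The difference Alios minus chow, with 311, gave 205 without a filter, 174 with only its 4 groups, 19 at an adjusted p under 0.01, and 14 to 755 with 1 library left out (101, 139, 641 without chow KO libraries 5, 3 and 1, and 163, 187 and 181 without chow WT libraries 2, 3 and 5). Of the values of single genes in KO against WT under the alternatives, 2697 kept their side of the threshold, 146 lost and 111 gained a call. Depth limits KO library 8, whose reads decide no level under about 21.3 CPM.

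The replicate number as a block gave 8 genes in KO against WT, all among the 26, 1 in the difference Alios minus HFD and 218 in that with chow. Same-numbered KO and WT libraries shared only a number: their deviations correlated from -0.14 to 0.34, and 3 of 6 correlated best with their own number.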

Other observations

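Genes of inflammation lists were on the lower side of the difference between Alios and chow, and their calls depended on single chow libraries. Diet and set of mice cannot be told apart in that difference. Of 26 acute-phase genes 11 were called lower in that difference, of 25 macrophage markers 12 and of 6 class II antigen presentation genes 6. Of 35 interferon-stimulated genes 9 were, and of 2 genes tested from the neutrophil list 2 (2.09% of all genes were called lower). These 2, of 11 on that list, were Csf3r and Lcn2, named above as an acute-phase gene, so they do not measure neutrophils alone. Without chow KO library 5 the counts of the 5 lists were 6, 7, 1, 2 and 0. Without chow KO library 2 they were 0, 1, 0, 1 and 0, where 14 genes in all were called. The median differences of the 5 lists were -1.40, -1.43, -2, -1.10 and -3.84 with all libraries and -1.21, -1.14, -1.69, -0.88 and -3.38 without it (all genes 0.015 and 0.017). Their median KO effects were 1.12, 1.25, 1.55, 0.607 and 3.45 on chow and -0.007, -0.004, -0.457, -0.359 and -0.392 on Alios, on the log2 scale in the fit of all liver groups. The class II genes Cd74 and H2-Aa belong to antigen-presenting cells, so cell number and RNA per cell cannot be told apart here either.

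Mup7, a growth hormone responsive urinary protein gene, ran from 195 to 3180 CPM in the WT livers and from 827 to 5670 CPM in the KO livers, and was not called (log2 1.14, edgeR adjusted p = 0.44). In clock genes, Arntl was at 2.09 CPM in WT library 4 and 2.70 CPM in WT library 3 against 16.2 to 35.9 CPM in the other WT livers, and at 4.66 to 36.0 CPM in KO libraries 1 to 7, while Dbp was at 85.1 and 77.8 CPM in WT libraries 4 and 3 against 4.64 to 32.3 CPM.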
